A study of Mus musculus with 18 samples.

Results

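Among 17 mouse leukemias studied by exome sequencing, 3 carried a large number of variant calls at low allele fraction that no other leukemia listed. They came from mice M18, M19 and M22 and were chosen by their measured values. Of the 8 leukemias whose mouse number lacks the ending NN (plain leukemias here), those with at least 150 private calls of allele fraction below 0.10 were taken, a private call being one at a site listed in 1 leukemia only. The 3 leukemias held 618 of the 1083 low-fraction private calls of the series and 788 of its 2653 calls. M22 was the lowest of the 3 with 197 such calls, and M24 was the highest outside the limit with 89. The other plain leukemias M20, M21, M23, M24 and M31 served as the comparison.

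All 17 mice were double transgenic for NP23 (a NUP98-PHF23 fusion) and NHD13 (a NUP98-HOXD13 fusion) on the C57Bl6-NIH strain, and their disease is given as thymic AML, an acute myeloid leukemia. M18, M19 and M22 were sampled from the thymus, as were M20, M21 and M31, while M23 and M24 were sampled from the bone marrow. Each leukemia came from a separate mouse and was sequenced as 1 library, and no age or treatment was given in the labels. Genomic DNA from the tail of 1 wild-type C57Bl6-NIH mouse was the normal for every leukemia, so variants that the colony carried and this mouse lacked stand among the calls. As background, both transgenes are driven in blood cells by Vav1 regulatory elements. What the ending NN means is not given in the labels, and a table of DNA calls does not allow a check of the tissue by its marker genes.

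The allele fraction is the share of sequenced molecules that carry a variant. A heterozygous change present in every cell of a pure sample has a fraction near that of its unchanged copy, and a change in a subclone, a minor set of cells, has a lower one. Damage to DNA before sequencing, errors of amplification and misplaced reads also give calls of low fraction, and exome calls alone do not separate these sources from subclones. MuTect2 gives each call a TLOD score, the log odds that the variant is present against sequencing error, and records in which of the read pair's orientations (F1R2 or F2R1) the variant reads lay, since some kinds of DNA damage appear mainly in 1 orientation.

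Insertions were a conspicuous class among these calls, and several were found in identical form in a pair of the 3 leukemias. The 7 insertions listed only among M18, M19 and M22 are shown first. They are part of the 12 sites listed only among these leukemias, and the other 5 are single-base changes. The lower-case letter is the reference base at the stated position, the capitals are the inserted bases, and coordinates and strand are those of the forward strand of mm10.
Samd5, chr10:9674618, M18 and M19: cTGGTGAGCTACCCTAA
Scrib, chr15:76057700, M18 and M19: tACAGA
Ncaph, chr2:127125681, M18 and M22: aCCAAGATCTAT
Dido1, chr2:180659946, M18 and M19: gGA
Ifna9, chr4:88592050, M18 and M19: gGATGA
Tufm, chr7:126489670, M18 and M19: cCTCAAA
Lingo1, chr9:56619771, M19 and M22: gGGAGAGGCCAA

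Other insertions lay at the same base in a pair of the 3 leukemias, but 1 insertion held the other. They are shown because the identical-site count leaves them out.
Eml3, chr19:8936743, M18: gTAAGAATGTTC
Eml3, chr19:8936743, M22: gTAAGAATGTTCC
Gfra2, chr14:70895970, M18: cACTGCCGAAG
Gfra2, chr14:70895970, M22: cACTGCCGAA
Cpt1c, chr7:44966868, M18: cAATGCTG
Cpt1c, chr7:44966868, M22: cAA
In Cpt1c, M22 had a further insertion at position 44966870. In Fam214a (chr9:75009534), M19 had 1 insertion and M18 had 2, at neighbouring bases. In Ggt1, the insertions of M18 and M19 began 1 base apart, at positions 75574373 and 75574372 of chromosome 10.
Ggt1, chr10:75574372, M19: cCCTGGAGTA
Ggt1, chr10:75574373, M18: cCTGGAGT

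The number of low-fraction private calls was 223 in M18, 198 in M19 and 197 in M22. It was 28 in M20, 26 in M21, 70 in M23, 89 in M24 and 88 in M31, and the NN leukemias had 5 to 51. These counts made the choice and are given without a test. They made up 79.6%, 77.0% and 78.5% of all calls in M18, M19 and M22. Calls of fraction below 0.05 numbered 209, 172 and 168 in the 3 leukemias and 14 to 65 in the other 5. Between 0.05 and 0.10 the groups overlapped, with 14 calls in M18, 26 in M19 and 29 in M22 against 14, 7, 22, 24 and 26 in M20, M21, M23, M24 and M31. The difference in number therefore lay below a fraction of 0.05. The lowest fraction bin, below 0.02, held 34, 15 and 18 calls in M18, M19 and M22 and at most 5 in any other plain leukemia.

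**Figure D1:**
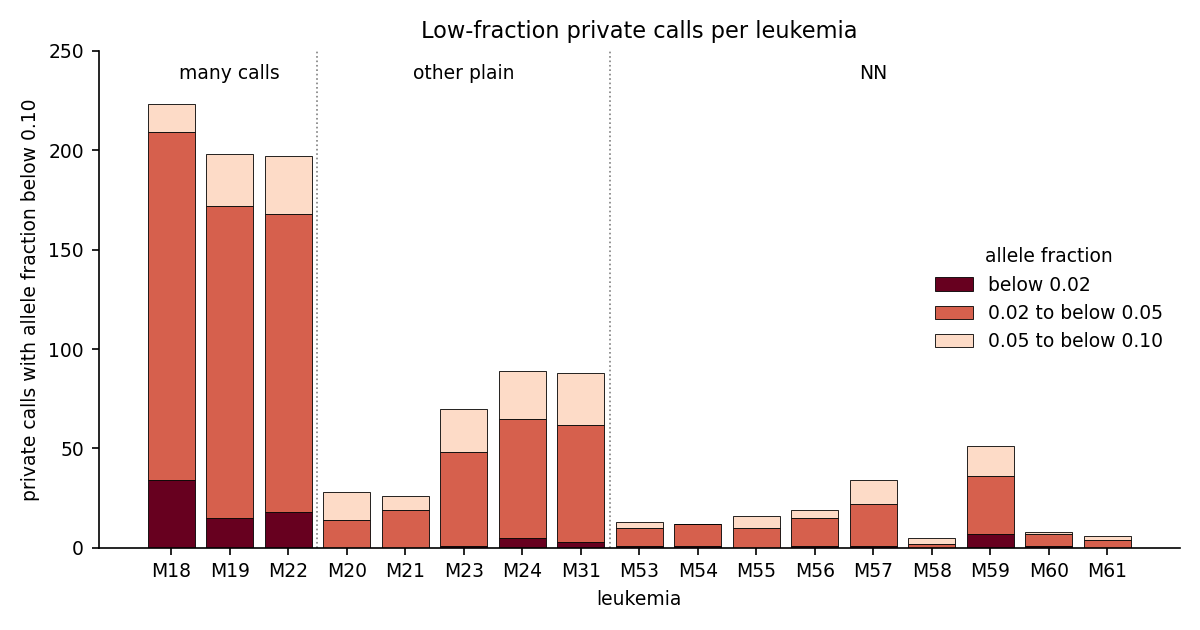
Number of private calls with allele fraction below 0.10 in each of the 17 leukemias, stacked by allele fraction. M18, M19 and M22 stand at 197 to 223 calls, mostly from 0.02 to 0.05, while the segments from 0.05 to 0.10 (14 to 29 calls) reach about the same height in the other plain leukemias (7 to 26 calls).

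Depth of sequencing moved with these counts. It was compared at sites that at least 10 leukemias list, which lie outside the rule. Each leukemia's value is the median over those of the sites that it lists itself. These numbered 15 in M18, 21 in M19, 20 in M22 and 12 to 22 in the other 5, so the sets of sites differed. The median depth there was 130 reads in M18, 97 in M19 and 96.5 in M22, against 50.5 in M20, 38 in M21, 63.5 in M23, 58 in M24 and 68.5 in M31. The groups did not overlap, with means of 107.8 ± 19.2 reads (SD, n = 3) and 55.7 ± 11.9 reads (SD, n = 5), a difference of 52.1 reads. An exact two-sided permutation test gave p = 0.0357, the smallest that 56 assignments of 3 and 5 leukemias allow, and an adjusted p of 0.125 over the 7 measures tested. The median TLOD at these sites was 261.8 in M18, 92.4 in M19 and 110.9 in M22 against 45.8 to 81.3 in the other 5 (exact permutation p = 0.0357, adjusted p = 0.125). The difference in mean TLOD was 90.2, and 36.8 without M18. Neither difference passed after adjustment.

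The NN leukemia M59 had a median depth of 107 reads, above M19 and M22, and held 51 low-fraction private calls. M60, with 87 reads, held 8. Among calls at sites covered by 60 to 120 reads only, a setting chosen after the data were seen, the 3 leukemias had 54, 63 and 62 calls. The other plain leukemias had 17, 13, 40, 49 and 27 in the order M20, M21, M23, M24 and M31. The groups stayed apart in this band, but the lowest of the 3 exceeded the highest of the other 5 by few calls. How many positions each leukemia covered at these depths cannot be read from the calls, so these are counts and not rates. How far depth set the number of low-fraction calls was not tested beyond these values.

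**Figure D2:**
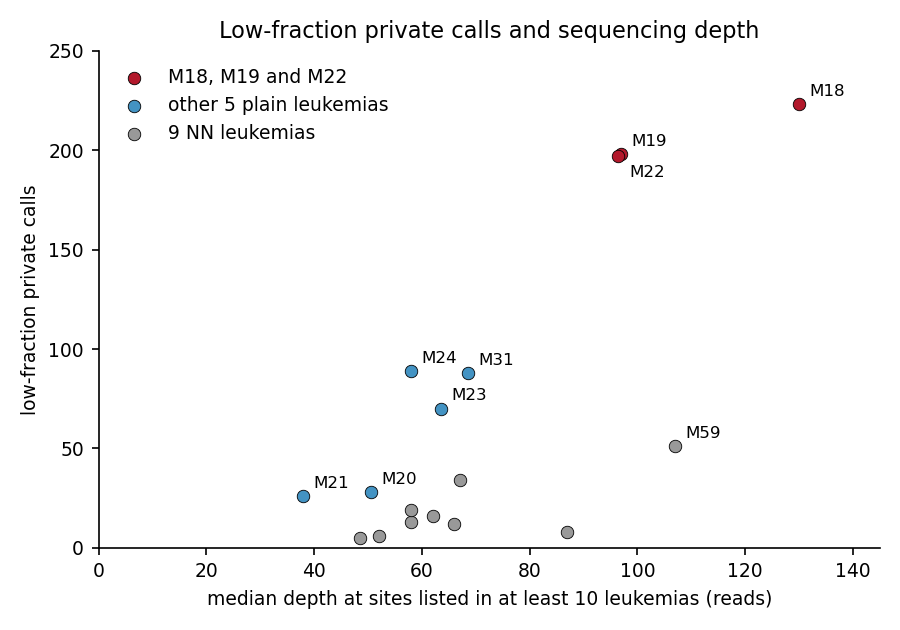
Low-fraction private calls (vertical axis) against the median depth in reads at sites listed in at least 10 leukemias (horizontal axis), 1 point per leukemia. The median covers those of the sites that the leukemia itself lists. M18, M19 and M22 have 96.5 to 130 reads and 197 to 223 calls, while the NN leukemia M59 has 107 reads and 51 calls.

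The remaining measures outside the rule did not separate the 3 leukemias from the other 5 plain ones. Calls at widely shared sites numbered 18.7 ± 3.2 (SD, n = 3) and 18.2 ± 3.8 (SD, n = 5), and their median allele fraction was 0.461 ± 0.038 and 0.468 ± 0.088. The median share of reads in the orientation that the caller tracks for oxidation damage was 0.480 ± 0.021 and 0.515 ± 0.046 at these sites. Private calls with a fraction of at least 0.10 numbered 9, 10 and 8 in M18, M19 and M22. They numbered 13, 24, 7 and 9 in M20, M21, M23 and M24 and 763 in M31, so the 3 leukemias lay within the range of the other plain ones. The difference of the means was -154.2 calls, and -4.25 without M31. The low end of that range came from the bone marrow leukemias M23 and M24. Among thymus leukemias only, the 3 had fewer such calls than each of M20, M21 and M31, with a difference of -257.7 calls. The exact permutation test gave p = 0.1 there, the smallest possible for 3 against 3, and an adjusted p of 0.233. Over all plain leukemias, the exact permutation p of these 4 measures and of the C>T share of private calls of at least 0.10 lay between 0.286 and 0.929. The large number of calls in the 3 leukemias was thus a feature of low fractions and was not seen above 0.10.

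Base changes were dominated by C>T (read on the strand of the changed pyrimidine, so G>A is included). Of the single-base calls, 67.3% were C>T in M18 (109 of 162, 95% Clopper-Pearson interval 59.5% to 74.4%), 70.5% in M19 (110 of 156) and 73.2% in M22 (101 of 138). These intervals, and those further on, account for counting error alone, because PCR copies of a molecule can be read several times. The share was 58.4% to 87.0% in the other plain leukemias, a range that holds all 3. C>A, the change that guanine oxidation gives, made up 8.6%, 8.3% and 8.7% of them in M18, M19 and M22 and 6.5% to 13.0% in the other 5. In the 3 leukemias together, C>G made up 3.29%, T>A 5.48%, T>C 9.65% and T>G 2.85%. On the coding strand C>T and G>A were about equally frequent, with 52 and 48 calls in M18, 58 and 46 in M19, and 49 and 50 in M22.

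The base before the changed C could be read for some coding calls from the codons that the protein change allows. It was G in 28 of 32 such C>T calls in M18 (87.5%, interval 71.0% to 96.5%), 50 of 53 in M19 (94.3%, interval 84.3% to 98.8%) and 34 of 38 in M22 (89.5%, interval 75.2% to 97.1%). The other plain leukemias had G in 49 of 62 low-fraction calls (79.0%), with 20 of 22 in M24, 9 of 13 in M23, 10 of 15 in M31 and 5 of 6 each in M20 and M21. The private calls of M31 with a fraction of at least 0.10, read in the same way, had G in 23 of 97 (23.7%, interval 15.7% to 33.4%). Only 181 of the 763 such calls of M31 were free of a database mark. In M20 and M21 the few readable private calls of at least 0.10 had G in 3 of 3 and 1 of 1, and in M19 in 0 of 2. Sites listed in several leukemias had it in 7 of 16. G was thus the commonest base before C in the low-fraction C>T calls of every plain leukemia. The base after C was itself C in 63 of 117 readable calls of the 3 leukemias (53.8%) and in 28 of 63 of the other plain ones (44.4%).

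**Figure D3:**
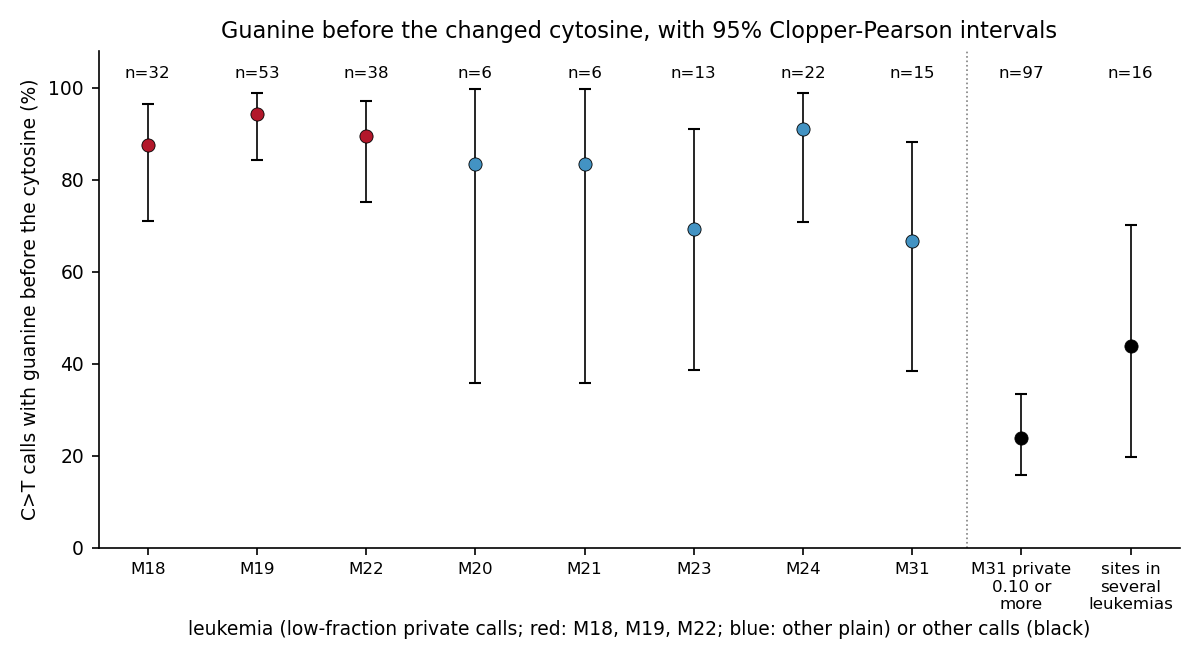
Share of C>T calls with guanine directly before the cytosine, with 95% Clopper-Pearson intervals and the number of readable calls above each point. M18, M19 and M22 lie at 87.5% to 94.3%, the other plain leukemias at 66.7% to 90.9%, and the private calls of M31 with a fraction of at least 0.10 at 23.7%.

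Where a low-fraction C>T call fell in a promoter window (250 bases before to 50 after a gene's start, RefSeq GRCm38.p6), the sequence around it could be read directly. These stretches are shown because they give the context without the detour over codons. The changed C and the base before it are in capitals, and each is written 5′ to 3′ on the strand of the C.
Htr6, chr4:139074802, forward strand, M19: atggtgaatGCggatacaggg
Gm51823, chr10:128512241, forward strand, M22: gaggtttgaGCcgggcagcat
Thg1l, chr11:45955381, forward strand, M23: ttggccatgGCcacccccaat
Cfap61, chr2:145934548, reverse strand, M23: ccaaggtagGCgaccgggagg
Htr6 encodes a serotonin receptor, and its call was carried by 7 of 211 reads in M19. The call near Gm51823 was annotated upstream of Mir6916 and carried by 5 of 210 reads. All 6 C>T calls of the plain leukemias in such windows, 3 of them from M19 and M22, had G before the C. Across the 32815 windows, 27.6% of cytosines on either strand have G before them. The number of calls is small.

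The protein changes give the same observation in another form, since the base before C was read from them. Alanine codons begin with GC, so C>T in them gives valine, and the same change on the other strand gives threonine. Of 192 amino acid changes made by C>T in the 3 leukemias, 50 were alanine to valine and 39 alanine to threonine, together 46.4%. The other plain leukemias had 36 of 87 (41.4%). Glycine to aspartate followed with 25 changes, proline to serine with 24 and arginine to histidine with 13.

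Insertions and deletions made up a larger share of the calls in the 3 leukemias than in the other plain ones, as a description. They made up 27.4% of the low-fraction private calls in M18 (61 of 223, interval 21.6% to 33.7%), 21.2% in M19 (42 of 198, interval 15.7% to 27.6%) and 29.9% in M22 (59 of 197, interval 23.6% to 36.9%). The share was 7.1%, 11.5%, 11.4%, 16.9% and 12.5% in M20, M21, M23, M24 and M31. The points did not overlap between the groups, but the intervals of the other leukemias reached into the range of the 3. The gap was small between M19 and M24: with neighbouring calls counted as 1 location the share was 18.03% in M19 and 16.5% in M24, and below a fraction of 0.05 it was 18.02% and 16.9%. Most were insertions, with 55 in M18, 35 in M19 and 49 in M22 against 6, 7 and 10 deletions. The inserted stretches had a median length of 9, 7 and 8 bases and a longest of 31, 36 and 33. Their length was a multiple of 3, which keeps the reading frame, in 17 of 55, 12 of 35 and 17 of 49, each listed call counted by itself.

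**Figure D4:**
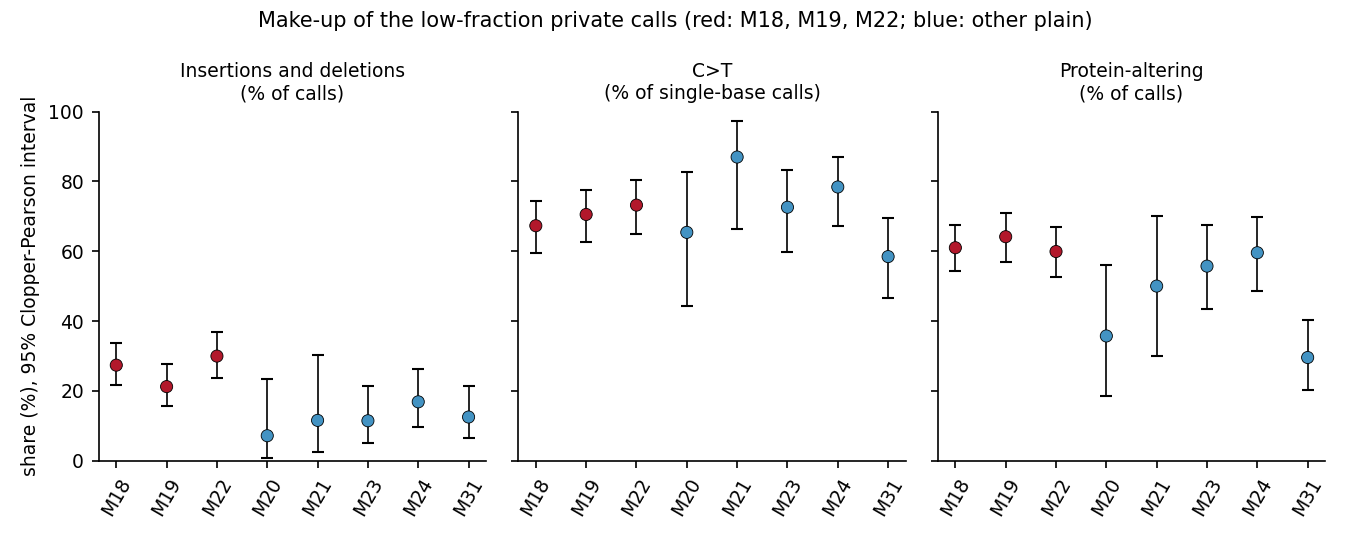
Share of insertions and deletions, of C>T among single-base calls and of protein-altering calls in the low-fraction private calls of the 8 plain leukemias, with 95% Clopper-Pearson intervals. Insertions and deletions stand at 21.2% to 29.9% in M18, M19 and M22 and at 7.1% to 16.9% in the other 5, while the C>T shares overlap.

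Some of these insertions were listed as several neighbouring calls with nearly equal read counts. In Tet3, which encodes an enzyme that oxidises 5-methylcytosine, M18 had insertions at positions 83370654 and 83370655 of chromosome 6, each in 5 of 158 reads with TLOD 10.41. Each was annotated as a frameshift, but joined they add 9 bases, a multiple of 3. The same holds for a pair of insertions in Ptgir in M19, so the frameshift counts include parts of such pairs. Joined pairs in Rasgef1c and Fam214a in M18 and in Morc2a, Sptbn4 and Arap1 in M19 also added a multiple of 3. Not all pairs did: the joined length was 5 bases in Gcn1l1 in M19, and 11 in Rnpepl1 and 4 in Fat1 in M22. Only insertions at directly neighbouring bases were joined, so pairs further apart, such as those in Adamts14 and Hspb6 in M22, are left out. With calls of 1 leukemia within 10 bases counted as 1 location, M18 had 201 locations, M19 had 183 and M22 had 184, against 26 to 86 in the other 5.

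By consequence, 61% of the low-fraction private calls altered a protein in M18, 64.1% in M19 and 59.9% in M22. The share was 29.5% to 59.6% in the other plain leukemias, with M24 next to M22. Missense changes were the largest class with 84, 86 and 77 calls, frameshifts numbered 33, 16 and 25, and in-frame insertions or deletions 15, 14 and 13. Stop-gained changes numbered 3, 7 and 3, and synonymous changes 22, 18 and 25. Of the 618 calls, 14.7% lay in introns or splice regions, 6.31% upstream or downstream of a gene and 3.72% between genes. Variants marked as present in a database made up 0.9%, 0.5% and 3.0% in the 3 leukemias, and 27.3% in M31.

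The evidence behind single calls was thin. The median call had 4 variant reads in each of the 3 leukemias, at a median depth of 150 reads in M18, 140.5 in M19 and 140 in M22. The median allele fraction was 0.028, 0.031 and 0.030. Median TLOD was 7.17 in M18, 6.88 in M19 and 7.12 in M22, little above 6.3, the lowest value in the table, and 6.98 to 7.27 in the other 5. With TLOD of at least 10, 34, 19 and 22 calls were left in the 3 leukemias and 0 to 12 in the others. The wild-type tail had a median depth of 53, 46 and 47 reads at the called sites of M18, M19 and M22 and of 61 to 80.5 reads at those of the other 5. It showed at least 1 variant read at 12 of 223 sites in M18, 12 of 198 in M19 and 13 of 197 in M22. In the other plain leukemias these were 3 of 28 in M20, 5 of 26 in M21, 3 of 70 in M23, 5 of 89 in M24 and 4 of 88 in M31.

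Taken as a median, read orientation was balanced over all calls and over C>T calls, which does not show whether single calls leaned to 1 orientation. The median orientation fraction was 0.5 in M18, M19 and M22, and also 0.5 for C>T calls alone. For the few C>A calls it was 0.45 in M18, 0.5 in M19 and 0.333 in M22, and 0.25 to 0.667 in the other plain leukemias. F1R2 reads made up 47.3%, 47.0% and 47.0% of variant reads in M18, M19 and M22, beside 45.9%, 46.8% and 47.0% of reference reads at the same sites. These shares add up all calls whatever the reference base, so opposite leanings at C and at G would cancel in them. All variant reads lay in 1 orientation in 20.2%, 24.7% and 29.6% of the calls, and in 17.9% to 30.8% in the other plain leukemias. The share that balanced reads would give at so few reads per call was not worked out, so a leaning of single calls was not tested.

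Sites listed only among M18, M19 and M22 numbered 12, at 9 locations in 8 genes and the mitochondrial genome. Of these, 9 were listed in M18 and M19, 1 in M18 and M22, 2 in M19 and M22, and 0 in all 3. The wild-type tail had 0 variant reads at every one. In the series, 43 sites were listed in exactly 2 leukemias, and besides these 12 there were 1 among the other 5 plain leukemias, 15 between the 2 kinds of plain leukemia, 13 among NN leukemias and 2 between plain and NN leukemias. The 3 leukemias also had the most low-fraction calls to share, and no test of the overlap was made.

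The insertion in Samd5, which encodes a protein with a sterile alpha motif, had the highest TLOD of them (23.15, in M19). It was carried by 8 of 191 reads in M18 (4.19%, interval 1.83% to 8.09%) and 11 of 155 in M19 (7.10%, interval 3.6% to 12.3%), and its 16 bases shift the frame at codon 116. The insertion in Scrib, which encodes a scaffold of epithelial cell polarity, was carried by 8 of 219 reads in M18 and 3 of 210 in M19. Ncaph encodes a subunit of the condensin complex, and its insertion was carried by 4 of 93 reads in both M18 and M22. The insertion in Dido1, a gene of a PHD finger protein, had 3 of 162 reads in M18 and 4 of 135 in M19. That in Ifna9, a type I interferon of a family of closely similar genes among which reads can be misplaced, had 5 of 404 and 3 of 385.

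Tufm, the mitochondrial translation elongation factor, carried the missense change G344R beside its insertion. All 4 Tufm calls in M18 and M19 rested on 3 reads each, of depths between 211 and 260. Lingo1, a membrane protein of neurons, likewise carried Y517C in 2 reads next to an insertion in 4 reads, in both M19 and M22. The synonymous change V227V in Klhl22, a substrate adaptor of a ubiquitin ligase, had 3 reads each in M18 and M19 at depths of 227 and 193. On the mitochondrial genome, neighbouring changes at positions 15313 and 15314 were carried by 7 of 1000 and 6 of 987 reads in M18 and by 13 of 4443 and 12 of 4383 in M19. In M18 and M19 these mitochondrial fractions were below 0.01, the lowest of the shared sites.

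Counting insertions within 10 bases of each other as 1 location, a setting added after the data were seen, 166 low-fraction insertion locations were found, 23 of them in at least 2 leukemias. Of the 23, 12 lay only among M18, M19 and M22, 9 were shared between them and other plain leukemias, 1 lay in other plain leukemias only, and 1 in plain and NN leukemias. At 15 of the 23 the insertions were identical, and at 8 the bases of 1 were contained in the other. At least 1 of the 3 leukemias was involved at 22 of the 23, but these 3 also had the most insertion locations. They had 58, 37 and 48, against 2 to 16 in the other plain leukemias. The share of a leukemia's insertion locations that recurred was 24.1% in M18 (14 of 58), 29.7% in M19 (11 of 37) and 20.8% in M22 (10 of 48), and in the other plain leukemias it was 1 of 2 in M20, 1 of 3 in M21, 1 of 7 in M23, 7 of 16 in M24 and 2 of 9 in M31. The shares of the 3 lay between those of M23 (14.3%) and M24 (43.8%, interval 19.8% to 70.1%).

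The insertions shared with other plain leukemias are shown by 3 examples. Ptpn6 encodes the phosphatase SHP-1, a brake on signalling in blood cells, Srcap a chromatin remodeller and Arhgap20 a GTPase-activating protein.
Ptpn6, chr6:124728698, M22 and M24: gTGGACGCTATA
Srcap, chr7:127560281, M18 and M24: cAGGG
Arhgap20, chr9:51840328, M19 and M20: gGGTGTATA
The Ptpn6 insertion, in an intron or splice region, had 5 of 144 reads in M22 and 3 of 101 in M24. The Srcap insertion shifts the frame and had 4 of 97 reads in M18 and 4 of 51 in M24. The Arhgap20 insertion had 5 of 107 reads in M19 and 4 of 47 in M20. Variant reads numbered 3 to 5 in these examples. The examples were chosen after their values were seen, so their closeness says nothing about the shared insertions as a set.

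**Figure D5:**
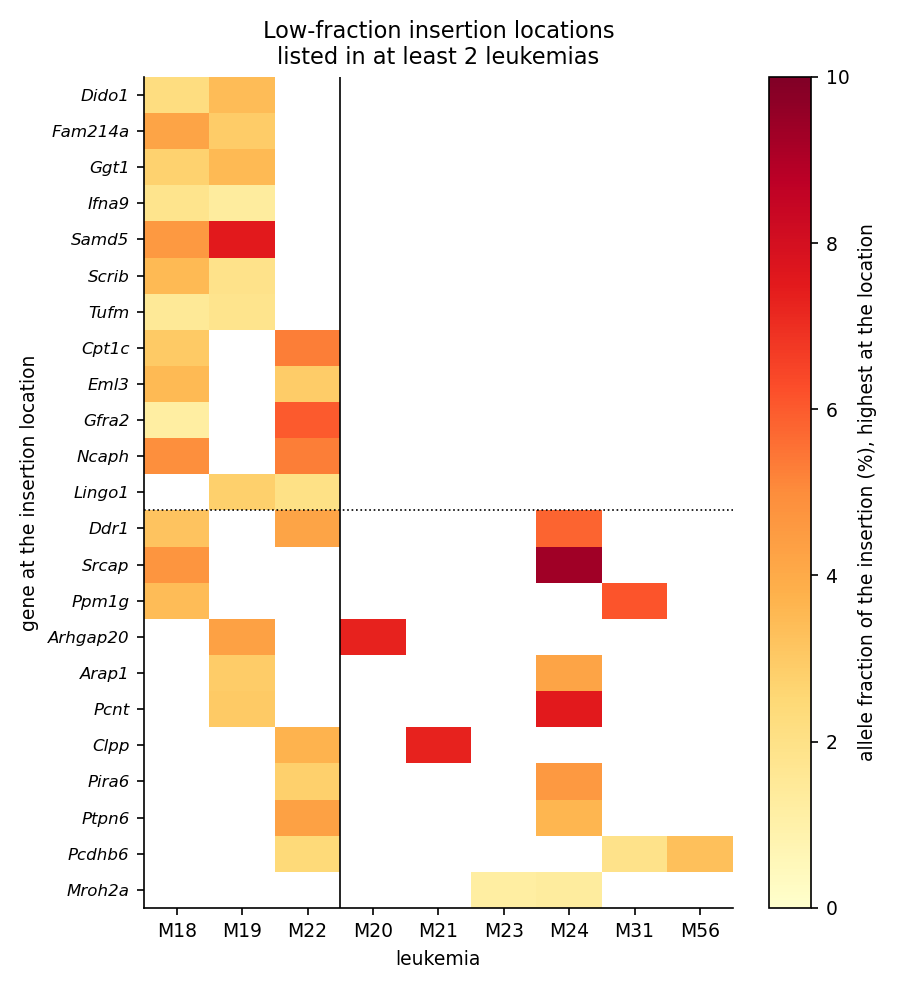
The 23 low-fraction insertion locations listed in at least 2 leukemias, by gene (rows) and leukemia (columns). Colour gives the highest allele fraction in percent of an insertion there, blank cells hold no call, and the 12 locations above the dotted line lie only among M18, M19 and M22.

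Genes with low-fraction private protein-altering calls numbered 337 in the 3 leukemias together. Of these, 10 were hit in 2 of the 3 leukemias and 0 in all 3. Among them were Cpt1c, Eml3, Fam214a, Gcn1l1, Gfra2, Ggt1, Hmgxb3, P4ha3 and Ttn. In 6 of the 10 the calls of different leukemias lay within 10 bases of each other: these are the nested insertions of Cpt1c, Eml3, Fam214a, Gfra2 and Ggt1 described above, and Hmgxb3. Cpt1c encodes a carnitine palmitoyltransferase of the brain, Eml3 a microtubule-binding protein, Gfra2 the receptor of neurturin and Ggt1 a gamma-glutamyltransferase. The insertion in Eml3 had 6 of 161 reads in M18 and 5 of 158 in M22. That in Gfra2 had 5 of 106 and 5 of 112, and the caller's fractions for the latter pair, 0.012 and 0.060, differed although the read shares did not.

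Other recurrent genes had calls at separate places. Ttn, which encodes a giant protein of the muscle sarcomere, had A15113V in M18 and P12102S in M22, in 3 of 130 and 5 of 140 reads. P4ha3, a subunit of collagen prolyl hydroxylase, had R140W in M19 and S388N in M22. Gcn1l1, whose product acts in the response to amino acid shortage, had M984R in M18 and a splice-site insertion in M19.

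Of 15 gene lists of leukemia pathways, DNA repair and large gene families, 10 had 0 low-fraction private protein-altering calls in the 3 leukemias. These were the lists for RAS and receptor tyrosine kinases, hematopoietic transcription factors, JAK-STAT and NOTCH signalling, splicing and cohesin, mismatch repair, replicative polymerases, base excision repair, nucleotide excision and double-strand break repair, cytidine deaminases, and nucleoporins. The counts cover the rows analysed here. The other plain leukemias had 0 in these 10 lists too, and with so few genes in a list a count of 0 carries no information on the pathway. The DNA methylation list (8 genes) had 0 of the 141 protein-altering low-fraction private calls of the other plain leukemias. It had 3 of the 381 such calls of the 3 leukemias, all insertions in M18. Beside the Tet3 pair there was a 1-base insertion in Tet2, an enzyme of the same family, in 5 of 164 reads (interval 0.997% to 6.97%), with a caller's fraction of 0.016. The list of 32 chromatin regulators had 1 of the 141 calls of the other plain leukemias and 3 of the 381 of the 3 leukemias. Counts this small carry no information on either pathway. Kmt2b, a histone H3 lysine 4 methyltransferase, had R2686H in M22 (6 of 111 reads). Kmt2d, of the same family, had A5487T in M19 (5 of 263 reads), and the corepressor gene Ncor1 had P1203S in M19 (4 of 99 reads).

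Olfactory and vomeronasal receptor genes, which form large families of similar sequence, had 18 protein-altering calls in 17 genes across all 3 leukemias and 2 synonymous calls. The other plain leukemias had 6 protein-altering and 2 synonymous calls in these families. Over all genes the 3 leukemias had 381 protein-altering and 65 synonymous calls, and the other plain leukemias 141 and 51. Zinc finger genes had 3 protein-altering calls and the 41 long genes 12, with Fat1, Lrp1b, Neb and Ttn among the genes hit. The other plain leukemias had 2 protein-altering calls in zinc finger genes and 2 in the long genes. Most genes were hit once. A single low-fraction private call was found in 167 of 194 genes in M18, 167 of 181 in M19 and 168 of 182 in M22. In M19 the most were 3 in Ptgir, which encodes the prostacyclin receptor, and in M22 no gene had more than 2.

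The private calls of higher fraction were few in M18, M19 and M22, and each leukemia had its own. Calls are ranked here among those with a depth of at least 20 reads. In M18 the highest protein-altering one was R272H in Hook1, a linker of cargo to microtubules, in 27 of 121 reads (22.3%, interval 15.2% to 30.8%). The next in M18 was G309D in the cadherin gene Cdh4 at a fraction of 0.097, the call just below the threshold. The nearest call above the threshold, whatever its depth, was a frameshift in Fa2h at 0.182 with 2 of 13 reads. After these in M18 came a frameshift insertion in Hivep1 (3 of 52 reads) and a pair of neighbouring calls in Lrp1b (4 of 68 reads each). M18 thus had 1 private protein-altering call at a depth of at least 20 reads above the threshold.

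M19 had protein-altering calls near a fraction of 0.5. Q450R in Syde2, a gene of a GTPase-activating protein, was carried by 66 of 134 reads (49.3%). E827K in Brpf1, a scaffold of histone acetyltransferase complexes, was carried by 38 of 80 reads. T1257M in the transporter gene Abcc2 had 21 of 147 reads. The lowest of those named was a frameshift insertion in 4931440F15Rik, in 2 of 20 reads. Just inside the threshold in M19 lay V655V in the chaperone gene Hsp90ab1 at 0.088 (12 of 148 reads), and just outside a deletion in 4732471J01Rik at 0.103.

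In M22 the highest were I45T in the olfactory receptor gene Olfr1153, in 24 of 48 reads, and an 8-base frameshift deletion in Lrba, which encodes a protein of vesicle trafficking in immune cells, in 29 of 71 reads (40.8%, interval 29.3% to 53.2%). The call next below the threshold was a frameshift insertion of 11 bases in Kdm6b, a histone H3 lysine 27 demethylase, in 7 of 82 reads at a fraction of 0.097, all in 1 orientation. A deletion in Rbpjl at 0.1 was the nearest at the threshold. P142S in Greb1 and G37D in Wdr86 followed with 3 of 43 and 5 of 59 reads.

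Of the 9 low-fraction private calls with the highest TLOD, 3 in each leukemia, 5 were insertions. The neighbouring pair in Fam214a in M18, with equal TLOD, is counted there as separate calls. Among all 618 low-fraction private calls of the 3 leukemias, 139 were insertions. Sites listed in several leukemias do not enter this ranking. In M18 they were the insertions in Fam214a (18.92) and a change in an untranslated region of Plekha6 (14.49, 10 of 188 reads). In M19 they were Hsp90ab1 (25.13), a 15-base insertion in the potassium channel gene Kcnj4 (24.53, 10 of 253 reads) and a change in an intron or splice region of Phtf1 (16.17). In M22 they included F179L in Sult2a1 (29.75) and an insertion in Cpt1c (19.50). The Sult2a1 call goes against its own fraction: 120 of 301 reads carried the variant, the caller gave 0.007576, and the wild-type tail had it in 43 of 148 reads. Sult2a1 belongs to a family of near-identical sulfotransferase genes, and whether its reads were misplaced was not tested.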

How the data were processed

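Exome libraries of 17 leukemias and 1 wild-type tail followed the Nextera protocol with SureSelectXT Mouse All Exon capture, per the labels' protocols. Tools listed, without role or order, in the submitters' processing notes are BWA 0.7.17, bcl2fastq 2.17.1.14 and GATK (version not given in the sources used here), with the builds mm10 and GRCm38. The labels name MuTect2 as well. The deposited table holds 2653 rows analysed here, all passing the caller's filter and in the bait regions. The read numbers per allele, per orientation and in total are raw counts, which the authors deposited as whole numbers. Allele fraction and orientation fraction are fractions estimated by the authors' caller, per the file headers, and the allele fraction can differ from variant reads over depth. TLOD is a score of the caller in the deposited table. Another 27 columns of per-sample values were not used.

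A site was defined by chromosome, start, reference and alternative allele. Leukemias were compared with exact two-sided permutation tests of the difference of means (scipy 1.17.1, Python 3.11.15), adjusted by Benjamini-Hochberg over 7 measures, on sites and calls outside the rule that chose the leukemias. The rule's own calls were described without a test. Replicates here are separate mice. Median depth at sites listed in at least 10 leukemias, over those that the leukemia itself lists, ran from 38 to 130 reads. Protein-altering calls were missense, stop, start, frameshift, in-frame and essential splice changes. Bases beside a changed C came from the codons allowed by the deposited coding and protein changes, since no genome was used. Promoter windows and 3 gene symbols turned into dates came from RefSeq GRCm38.p6. The test and the codon reading were tested on simulated data.

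Genes were named by rule: protein-altering low-fraction private calls in at least 2 of the 3 leukemias, sites listed only among the 3, members of the smaller lists, in each leukemia the 5 protein-altering private calls of highest fraction at a depth of at least 20, the 3 low-fraction calls of highest TLOD, the gene with the most calls (in M22, where many genes tied at 2, they were counted), and the calls beside a fraction of 0.10. The insertion examples in Ptpn6, Srcap and Arhgap20 and the promoter calls were chosen after their values were seen. The members, the lists and the tests were chosen with earlier results of these data known. Some calls that the rule names are not reported here. Alternatives are given at the end.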

Additional observations from a re-analysis of the deposited data

Results flagged for a closer look

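Among the 6 plain leukemias from the thymus, 13 measures were searched for a single leukemia far from the others, by the gap to its nearest neighbour over the whole range (Dixon's critical value 0.625). Chance flags about 1 in 20 such groups, and 3 values were found. M31 had 763 private calls with a fraction of at least 0.10, against 24 or fewer in the other plain leukemias, and 181 of them were not marked as in a database. M31 also had the highest median orientation fraction at widely shared sites, 0.577. M18 had a median TLOD of 261.78 at widely shared sites, where the next highest of the plain leukemias was M22 with 110.9.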

How the results depend on the processing

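The counts, described without a test, kept M18, M19 and M22 above the other 5 plain leukemias in every setting tried except fractions from 0.05 to 0.10, where the lowest of the 3 was 14 and the highest of the 5 was 26. The lowest of the 3 and highest of the 5 were 200 and 141 with fractions below 0.20, 19 and 12 with TLOD of at least 10, 62 and 45 with at least 5 variant reads, and 54 and 49 at depths of 60 to 120 reads. The lowest share of insertions and deletions in the 3 (M19) and the highest in the other 5 (M24) were closest below a fraction of 0.05 (18.02% and 16.9%) and with neighbouring sites as 1 (18.03% and 16.5%). They were 47.4% (9 of 19 calls) and 40% (2 of 5 calls) at TLOD of at least 10 and 14.5% and 8.70% with at least 5 variant reads. With at least 5 variant reads in each leukemia, 3 of the 12 sites listed only among the 3 were left.

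Of 98 alternatives of the 7 tested measures, 85 kept the direction, 0 had an adjusted p under 0.05 and 10 a raw p under 0.05 (exact permutation tests). Calls at widely shared sites differed by 0.467 (the 3 minus the other 5), and by -1 among thymus leukemias only, -0.267 at sites in at least 15 leukemias and -1.47 on assembled chromosomes. Median allele fraction there differed by -0.0070, and by 0.0097, 0.042 and 0.012 in the same settings. The C>T share of private calls differed by 10.2 percentage points, and by -8.12 from a fraction of 0.20. The cause was not tested.

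Leaving out each leukemia in turn gave 41.05 to 57.8 reads for the difference in depth, 36.8 to 121.5 for TLOD (36.8 without M18), -1.08 to 2.3 for calls at shared sites, -0.044 to 0.014 for allele fraction, -0.047 to -0.019 for orientation, -193.2 to -4.25 for private calls of at least 0.10 (-4.25 without M31) and 0.198 to 17.7 points for the C>T share. In thymus leukemias only, 3 against 3, no p under 0.1 is possible. The differences in depth, TLOD and private calls of at least 0.10 had that value there (exact permutation tests). No paired analysis was possible because each mouse number occurs once. At about 4 variant reads a call, single low-fraction calls are imprecise, and their presence in another leukemia of lower depth could be missed.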
